A study of Mus musculus with 289 samples.

Results

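The genes described are 9 members of the cartilage matrix programme, Col2a1, Col9a3, Col11a1, Col11a2, Col16a1, Matn4, Prelp, Chadl and Wwp2. They were chosen by name, as genes of a matrix set known to lie under Sox9, and with earlier results of these data known. They come out of 55487 genes in the longest of the 5 count tables, and all 9 were present in every table. The values are read counts of single astrocytes of adult mouse cortex. Cas9-expressing transgenic mice had received a lentivirus (Mok-LV) built to act in astrocytes. It carried guide RNAs (gRNAs) against the transcription factors Sox9 or Trps1, against both, or a control gRNA. Cells were drawn with a patch pipette and each became a Smart-seq2 library of polyA RNA, which carries no molecular identifiers.

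The cells fall into 16 pools, each 1 gRNA label within 1 of 5 batches and, outside batch 1, 1 day label after injection. In batch 5 the pools were 21 cells with Sox9 gRNA and 30 with Trps1 gRNA, both at day 21, set against 22 cells with no gRNA. Batch 4 contributed 16 cells with Sox9 gRNA and 13 with both (dual gRNA) at day 21, besides 14 Trps1 gRNA cells at day 7, set against 15 control gRNA cells of day 21. Batch 3 had 21 Sox9 gRNA and 14 dual gRNA cells, all of day 7, set against 6 without gRNA. Batch 2 held 8 dual gRNA cells of day 21, with 7 control gRNA cells of day 21 and 8 of day 7. Batch 1 held 4 dual gRNA, 10 control gRNA and 31 no gRNA cells, with day not used because its day labels climb nearly 1 by 1 from cell to cell, over days 8 to 16 in control gRNA and 17 to 20 in dual gRNA cells. All these animals carried Cas9 as far as the labels say. Cells with no gRNA are labelled adult with no day, and the sources used here do not say whether virus was injected there. A further 12 in-slice controls, libraries from a pipette that went into the tissue without collecting a cell, served as background. The labels name no animal, so every pool stands alone, cells are not replicates, and no p-value is given for any difference.

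Cartilage is held together by thin fibrils of collagen II and collagen XI, whose chains come from Col2a1, Col11a1 and Col11a2, with collagen IX (Col9a3) bound to the fibril surface. Matrilins, small leucine-rich proteins and chondroadherin-type proteins link these fibrils to the aggrecan gel. In chondrocytes Sox9, together with Sox5 and Sox6, switches this gene set on, and Trps1 acts on the same cells as a GATA-type repressor. In the adult brain Sox9 is a factor of astrocytes, whose matrix is not fibrillar cartilage.

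A set of 4 members is shown by the 250 bases before the RefSeq start site (build GRCm38.p6), because Prelp, Col16a1 and Col11a2 were low together in one comparison while Wwp2 was high in it. Col9a3 was low there too, but Col9a3 and Col2a1 had no entry among the promoters used and are not shown. Capitals mark the letters of a Sox core (AACAAT or ACAATG) or of a GATA core (AGATAA) on either strand. The first pair of motifs shares the letters ACAAT. The sequences run 5′ to 3′ on the gene's own strand.
Prelp, chr1:133921402-133921651, minus strand: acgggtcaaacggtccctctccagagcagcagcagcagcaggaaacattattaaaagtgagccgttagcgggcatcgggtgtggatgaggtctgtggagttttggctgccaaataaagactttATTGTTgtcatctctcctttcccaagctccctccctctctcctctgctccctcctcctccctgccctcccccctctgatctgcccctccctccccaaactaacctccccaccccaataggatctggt
Col16a1, chr4:130047590-130047839, plus strand: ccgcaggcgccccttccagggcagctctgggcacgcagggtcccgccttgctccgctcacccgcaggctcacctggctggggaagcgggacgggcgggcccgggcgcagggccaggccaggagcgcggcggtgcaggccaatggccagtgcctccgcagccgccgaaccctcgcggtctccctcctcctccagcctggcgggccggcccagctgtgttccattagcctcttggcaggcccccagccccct
Col11a2, chr17:34038888-34039137, plus strand: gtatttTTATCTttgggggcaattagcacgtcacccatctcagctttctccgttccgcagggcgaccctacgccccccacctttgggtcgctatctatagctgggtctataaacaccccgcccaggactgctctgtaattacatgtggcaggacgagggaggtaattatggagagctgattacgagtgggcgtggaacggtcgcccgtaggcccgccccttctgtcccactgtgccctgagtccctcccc
Wwp2, chr8:107436120-107436369, plus strand: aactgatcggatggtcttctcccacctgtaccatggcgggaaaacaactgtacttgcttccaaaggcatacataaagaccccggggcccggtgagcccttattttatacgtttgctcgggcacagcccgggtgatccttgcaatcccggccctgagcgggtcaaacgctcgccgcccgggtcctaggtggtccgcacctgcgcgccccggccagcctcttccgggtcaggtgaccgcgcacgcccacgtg

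Sox letters stood in the Prelp window, beginning 127 bases before the start, and in the Chadl window, 90 bases before it. They stood in none of the other 5 members matched in the table, nor in the second Matn4 start that the table lists. Of all 32851 promoter windows of that length, 16.2% held a Sox match and 9.99% a GATA match, and the GATA letters stood in Col11a2 alone among the members. The windows of Prelp, Col11a2, Wwp2 and Col16a1 were 55.6%, 57.6%, 62.8% and 75.6% G and C. A match is a description of letters, not a bound site.

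Depth and sample facts that touch the members were as follows. Reads in genes ran from 15959 to 4656612 per astrocyte (median 1094502) and from 341394 to 2299609 per in-slice control. The shallowest pool was no gRNA of batch 3, where 3 of 6 cells held under 100000 reads. One pair of libraries in batch 4 and one in batch 5 differed far less than any other pair (r = 0.984 and 0.989 of log counts, against at most 0.612 and 0.649) and were joined, each counted as 1 cell. Sox9 RNA went both ways under its gRNA. Its level among batch 1 cells was 1860 CPM with dual gRNA, 209 CPM with control gRNA and 524 CPM without gRNA. It was at 905 CPM in dual gRNA and 491 CPM in control gRNA cells of day 21 of batch 2, and at 1303 CPM in Sox9 gRNA, 1492 CPM in dual gRNA and 382 CPM in no gRNA cells of batch 3. It stood at 233 CPM in Sox9 gRNA, 664 CPM in Trps1 gRNA and 307 CPM in no gRNA cells of batch 5, and at 189 CPM in Sox9 gRNA, 133 CPM in dual gRNA and 177 CPM in control gRNA cells of batch 4. Single cells weigh on these pooled values. Median cells stood at 1862, 145 and 133 CPM in batch 1 and at 162 and 510 CPM in batch 2, in the orders given. In batch 3 the medians were 412, 207 and 254 CPM, with 14893 CPM in the highest dual gRNA cell. They were 163, 417 and 238 CPM in batch 5, and 133, 0 and 0.975 CPM in batch 4. A Cas9 cut can leave a readable transcript, so pools are called by their labels. All 10 astrocyte markers had reads in each astrocyte pool, summing to 1776 CPM in dual gRNA cells of batch 4 and to 3319 to 16766 CPM elsewhere. The 8 microglial markers summed to 4136 to 9919 CPM in every pool given a gRNA, and to 162 to 253 CPM in the no gRNA pools of batches 1, 3 and 5.

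Levels are given as CPM (counts per 1000000 reads in genes, over the summed counts of a pool) and as the share of its cells with a read. The 95% intervals of CPM cover counting error only, not variation between cells or animals. Those of a share of cells treat cells as independent draws and do not cover variation between animals. The pooled CPM alone cannot tell fewer cells with an RNA from less RNA per cell, so cell counts are given beside it.

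**Figure D1:**
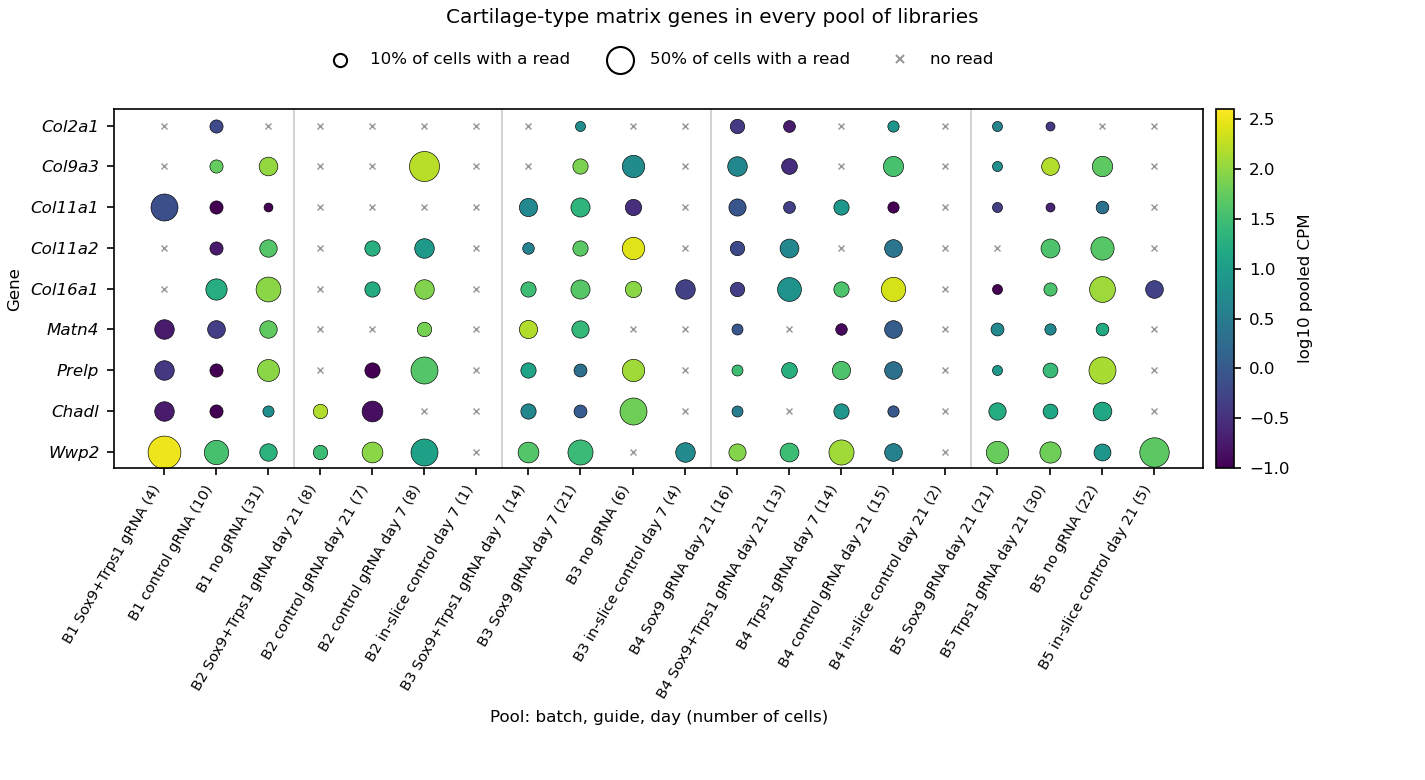
Levels of the 9 members in each pool: one row per gene and one column per pool, colour for the log10 of pooled CPM and dot size for the share of cells with a read. A cross marks a pool with no read. Col2a1 has reads in 7 of the 16 astrocyte pools and Wwp2 in 15.

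The fibril-forming chains Col2a1 and Col11a1 were the rarest members. Col2a1 (ENSMUSG00000022483, GRCm38 chromosome 15, 97975602 to 98004695, minus strand), the chain of collagen II, had a read in 8 of 240 astrocytes, and 10 or more reads in 4. Its highest cell, a control gRNA cell of batch 4, stood at 273 CPM, and no cell of batch 1 no gRNA, batch 5 no gRNA or batch 2 held a read. Col11a1 (ENSMUSG00000027966, chromosome 3, 114030540 to 114220718, plus strand), a collagen XI chain, had a read in 24 astrocytes and 10 or more in 8. Its highest pool was Sox9 gRNA of batch 3, at 21.8 CPM with reads in 5 of 21 cells. Col11a2 (ENSMUSG00000024330, chromosome 17, 34039437 to 34066685, plus strand), the other collagen XI chain, was read in 39 astrocytes. Its pools ran from 0 in 4 of them to 269 CPM in no gRNA cells of batch 3, where 1 of the 6 cells held 99.5% of the reads.

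The collagens of the fibril surface were more often read. Col9a3 (ENSMUSG00000027570, chromosome 2, 180597790 to 180622189, plus strand), a chain of collagen IX, had reads in 41 astrocytes, and its highest cell stood at 2553 CPM. Its exons share 6.07% of their bases with Tcfl5 on the other strand. Col16a1 (ENSMUSG00000040690, chromosome 4, 130047840 to 130099283, plus strand), the chain of collagen XVI, a related non-fibrillar collagen, had reads in 56 astrocytes. Its highest cell reached 4644 CPM, the highest single-cell value of any member.

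The non-collagen members differed in how widely they were read. Prelp (ENSMUSG00000041577, chromosome 1, 133910304 to 133921414, minus strand), a small leucine-rich repeat protein that anchors basement membranes to connective tissue, had reads in 48 astrocytes, or 20% of them. Matn4 (ENSMUSG00000016995, chromosome 2, 164389393 to 164405160, minus strand), a matrilin that links matrix fibres, had reads in 28. Chadl (ENSMUSG00000063765, chromosome 15, 81678296 to 81697287, minus strand), a chondroadherin-like protein that binds collagen, had reads in 31. Exons shared with opposite-strand genes were 9.68% of the bases of Prelp (Gm15851), 2.88% of Matn4 (Rbpjl) and 19.5% of Chadl (L3mbtl2), and the sources used here do not say how strand was counted. Wwp2 (ENSMUSG00000031930, chromosome 8, 107436365 to 107558595, plus strand), a ubiquitin ligase and the host gene of the cartilage microRNA Mir140, had reads in more cells than any other member, 68 of 240 or 28.3%. Mir140 takes 70 exon bases on the same strand.

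Reads in the in-slice controls set the background. Col16a1 had at most 3 reads in 2 of the 12, the highest at 2.98 CPM, and 7 members had none in any. Wwp2 had reads in 4 of the 12, with 527 CPM in the highest, so its presence in an astrocyte library does not set it apart from a pipette that took no cell. Among batch 4 cells with 1 to 9 reads of a member, 50% shared a sequencing index with the cell highest for it, against 16.6% of cells with none, and in batch 5 the shares were 27.8% and 19.1%. Whether stray index reads made these low values was not tested. Counts of cells in which a gene was read take any read, so they can include such values. Counts of members per cell, of members found together and of cells compared by markers use 10 or more reads.

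At that level, 126 of 240 astrocytes (52.5%) held at least 1 member, 66 held exactly 1, and the most in any cell was 7. Per kilobase of exon, where genes can be set beside each other, no gRNA cells of batch 5 stood at 37.8 reads per kilobase and 1000000 reads for Prelp, 17.3 for Col16a1 and 13.03 for Col9a3. Col11a2 followed at 6.504, Matn4 at 2.95, Chadl at 2.61, Wwp2 at 0.868 and Col11a1 at 0.173. In no gRNA cells of batch 1 the leading values on that scale were 27.3 for Col9a3, 26.4 for Prelp and 13.9 for Col16a1. Col9a3 and Prelp changed places between the batches.

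Sox9 gRNA cells of batch 5 held fewer reads of Prelp, Col16a1, Col11a2 and Col9a3, and more of Wwp2, than cells with no gRNA. Prelp was read in 1 of 21 Sox9 gRNA cells, at 119 CPM in that cell, and its pool stood at 7.96 CPM (6.68 to 9.42). In no gRNA cells it was read in 11 of 22, from 8.71 to 1095 CPM with a median of 192 CPM among them, and its pool stood at 137 CPM (131 to 142). A single Sox9 gRNA cell held the gene, at a value within the range of the no gRNA cells.

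Col16a1 had a single read among all 21 Sox9 gRNA cells, a pool of 0.0585 CPM (0.00148 to 0.326). It was read in 10 of 22 no gRNA cells, from 1.02 to 531 CPM, a pool of 117 CPM (112 to 122). Col11a2 had no read in Sox9 gRNA cells, where 3 counts would be 0.176 CPM, and had reads in 8 of the 22 no gRNA cells, from 19.5 to 398 CPM, a pool of 44.7 CPM (41.6 to 48.0). Col9a3 was read in 1 Sox9 gRNA cell, at 146 CPM and 6.09 CPM pooled, and in 6 no gRNA cells from 38.2 to 321 CPM, 50.2 CPM pooled. For each of these 4 genes the Sox9 gRNA pool holds at most 1 cell with reads, and single cells with no read are common in both pools.

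Wwp2 ran the other way. It was read in 7 of 21 Sox9 gRNA cells, from 13.9 to 773 CPM (58.6 CPM pooled, 55.0 to 62.3), against 4 of 22 no gRNA cells, from 1.07 to 66.4 CPM (7.70 CPM pooled, 6.43 to 9.15). The single-cell values overlap, and 5 Sox9 gRNA cells lie above every no gRNA cell. The 5 in-slice controls of that batch stood at 49.2 CPM pooled, and at 3.37 CPM without their highest library. A Wwp2 read was found in 60% of them, against 33.3% of the Sox9 gRNA cells.

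**Figure D2:**
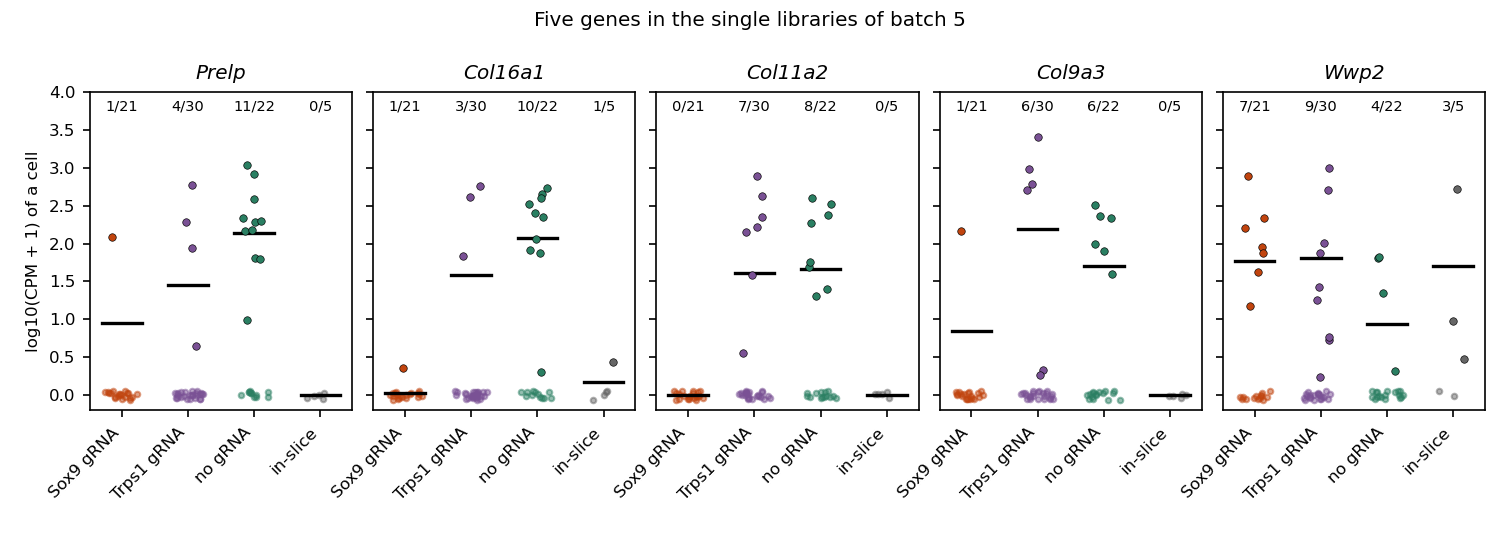
Single-cell values of Prelp, Col16a1, Col11a2, Col9a3 and Wwp2 in batch 5, as log10 of CPM + 1, with 1 point per cell and a bar for the pooled CPM, in Sox9 gRNA, Trps1 gRNA, no gRNA and in-slice samples. Prelp has reads in 1 of 21 Sox9 gRNA cells and in 11 of 22 no gRNA cells; Wwp2 has reads in 7 and in 4.

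A difference was called when the log2 ratio of pooled CPM, with 5 CPM added to each, was at least 1 in size with all cells and again, in the same direction, without each pool's highest cell for the gene. The added 5 CPM draws ratios of low genes towards 0, and a ratio against a pool at 0 is no bound. In all, 7 members reached 5 CPM in one of the pools, and 4 of these were called lower: Col16a1 (log2 ratio -4.59), Prelp (-3.45), Col11a2 (-3.31) and Col9a3 (-2.32). Across all 12288 genes tested, 13.3% were called lower, beside 4 of 7 members. The members were chosen with earlier results of these data known, so this difference is no test of the set. Wwp2 alone was called higher (2.32), against 13.8% of all genes. The median log2 ratio was -2.32 over the 7 members and 0.08 over all genes. Without the highest cells the 4 ratios were -4.36, -4.23, -3.02 and -3.04, and that of Wwp2 was 1.99.

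When every cell was thinned to 100000 reads, the expected share of cells with a Prelp read was 4.76% in Sox9 gRNA and 48.2% in no gRNA cells. For Col16a1 it was 0.601% and 41.4%, for Col11a2 0% and 35.4%, and for Col9a3 4.76% and 27.2%, in the same order of pools. Wwp2 stood at 32.2% in Sox9 gRNA and 13.7% in no gRNA cells. Equal depth thus left the order of the pools as it was for all 5 genes. Taken as a set picked after their values were seen, the 4 low genes were present at 10 or more reads in 2 of 21 Sox9 gRNA cells (9.52%, 1.17% to 30.4%) and in 16 of 22 no gRNA cells (72.7%, 49.8% to 89.3%).

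The other 4 members were not called between Sox9 gRNA and no gRNA cells of batch 5. Chadl stood at 15.8 CPM in Sox9 gRNA, 13.8 CPM in Trps1 gRNA and 13.7 CPM in no gRNA cells, with reads in 4, 4 and 5 cells. Matn4 stood at 4.98, 4.76 and 15.3 CPM in the same pools, each with reads in 2 cells. Col11a1 stood at 0.468, 0.227 and 2.21 CPM, and Col2a1 at 4.22, 0.416 and 0 CPM, each in 2 cells or fewer.

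The day label and any virus given differ together with the gRNA between these pools and cannot be told apart there. Microglial markers summed to 7681 CPM in Sox9 gRNA cells, against 162 CPM without gRNA, all 8 read in both, while astrocyte markers stood at 11494 and 11883 CPM. The part of these in the members' differences was not tested. Both title series of the no gRNA cells, AG and 2AG with 11 cells each, held the low genes: Prelp stood at 195 and 84.1 CPM, Col16a1 at 88.7 and 142 CPM, Col11a2 at 80.3 and 12.4 CPM and Col9a3 at 28.2 and 70.2 CPM.

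Trps1 gRNA cells of the same batch share the day and the virus with Sox9 gRNA cells, and share the no gRNA pool with the comparison above. Against no gRNA cells, Prelp and Col16a1 were called lower (log2 ratios -2.137 and -1.51) and Wwp2 higher (2.43), with 8.15% of all genes called lower and 19.2% higher. Prelp stood at 27.2 CPM in 4 of 30 Trps1 gRNA cells and 137 CPM in 11 of 22 no gRNA cells, and Col16a1 at 37.8 CPM in 3 cells and 117 CPM in 10. Col11a2, read in 7 of 30 Trps1 gRNA cells at 39.3 CPM pooled, lay close to the 44.7 CPM of no gRNA cells. Col9a3 stood at 154 CPM in Trps1 gRNA cells, 74.5% of it in 1 cell, and at 41.1 CPM without that cell, against 50.2 CPM and 36.2 CPM in no gRNA cells. The median log2 ratio of all genes was 0.41. With title series 21T3 of the Trps1 gRNA cells alone, that of Wwp2 turned to -0.88.

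Set against Trps1 gRNA cells directly, Sox9 gRNA cells were lower in 4 of the 6 members at 5 CPM or more, where 18.4% of all 12709 genes were called lower. The log2 ratios were -3.84 for Col9a3, -3.15 for Col11a2, -3.08 for Col16a1 and -1.31 for Prelp, and without the highest cells -3.20, -2.79, -2.38 and -1.75. None was called higher, against 7.41% of genes, and the all-gene median was -0.31. Wwp2 stood at 58.6 CPM in Sox9 gRNA and 63.6 CPM in Trps1 gRNA cells. Microglial markers stood at 7681 CPM in Sox9 gRNA and 6016 CPM in Trps1 gRNA cells, astrocyte markers at 11494 and 16614 CPM, neuron markers at 1605 and 3641 CPM and oligodendrocyte markers at 4279 and 2345 CPM, in the same order. Their part was not tested. The Trps1 gRNA cells came in 3 title series that differed: 21T, 21T2 and 21T3 (9, 10 and 11 cells) stood at 70.2, 380 and 0 CPM for Col9a3, at 92.0, 55.2 and 0 CPM for Col16a1, and at 0, 50.6 and 19.2 CPM for Prelp. Against series 21T3 alone the ratios of Col9a3 and Col16a1 turned to 1.15 and 0.017, and against 21T alone that of Prelp turned to 1.37, so the lower values of these 3 genes rest on which series are taken. Col11a2, at 0 CPM in Sox9 gRNA cells, stood at 94.6, 25.4 and 27.2 CPM in the 3 series. Its ratio was -4.32, -2.60 and -2.69 against 21T, 21T2 and 21T3 alone, and the call ended against 21T2 and 21T3.

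Batch 4 gives the one comparison of Sox9 gRNA with control gRNA at the same day, and there Col16a1 was the only member called. It was read in 2 of 16 Sox9 gRNA cells, at 1.29 and 7.48 CPM (0.457 CPM pooled, 0.197 to 0.901), and in 6 of 15 control gRNA cells, from 4.81 to 4644 CPM (237 CPM pooled, 230 to 244). A single control cell held 92.9% of those reads, and without it the control pool stood at 17.6 CPM. The log2 ratio was -5.47 with all cells and -2.16 without the highest cells. This 1 call among 5 members stands beside 21.3% of all genes called lower and an all-gene median of -0.59, so the count by itself is at the background.

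The other members of batch 4 rested on single cells. Prelp stood at 29.9 CPM in Sox9 gRNA cells, all in 1 cell, and 2.09 CPM in 3 control gRNA cells, and Wwp2 at 85.1 CPM in Sox9 gRNA cells and 3.68 CPM in control gRNA cells, with 0.183 and 2.24 CPM left without the highest cells. Col9a3 stood at 4.80 CPM in Sox9 gRNA and 35.7 CPM in control gRNA cells, in 4 cells each, and at 1.79 and 4.27 CPM without the highest. Fibroblast and pericyte markers summed to 270 CPM in Sox9 gRNA cells, most of it from Col1a1 and Col1a2, and to 10.8 CPM in control gRNA cells. In each pool 7 of 9 were read, with Lum at 0 in both, Rgs5 at 0 in Sox9 gRNA and Kcnj8 at 0 in control gRNA cells. No member was called higher, against 8.02% of all genes.

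Dual gRNA cells of batch 4 shared the control pool. Col16a1 was lower, at 6.81 CPM in 5 of 13 dual gRNA cells and 0.333 CPM without the highest, against 237 and 17.6 CPM in the same control gRNA cells (log2 ratio -4.36). Wwp2 was higher, at 29.4 CPM in 3 dual gRNA cells and 3.68 CPM in 3 control gRNA cells (log2 ratio 1.98). That is 1 lower and 1 higher call among 5 members at 5 CPM or more. All genes were called lower in 18% and higher in 7.72%, with a median of -0.43, so the lower count is near the background. Astrocyte markers stood at 1776 CPM in dual gRNA and 5963 CPM in control gRNA cells, and their part was not tested. Between Sox9 gRNA and dual gRNA cells no member was called in either direction, among 3 at 5 CPM or more, where 16.3% of all genes were lower and 12.4% higher.

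Trps1 gRNA cells of day 7 were also set against the day 21 controls of batch 4, where day and gRNA cannot be told apart. Col16a1 was lower, at 39.1 CPM in 2 of 14 Trps1 gRNA cells and 1.43 CPM without the highest (log2 ratio -2.46, and 15.3% of genes called lower). Wwp2 was higher, at 120 CPM in 6 of 14 Trps1 gRNA cells and 15.7 CPM without the highest, against 3.68 CPM in control gRNA cells (log2 ratio 3.85). Prelp was higher too, at 39.3 CPM in 3 Trps1 gRNA cells and 2.09 CPM in control gRNA cells (log2 ratio 2.65), with 11.5% of genes called higher. These were 1 lower and 2 higher calls among 7 members at 5 CPM or more, so the lower count is near the background.

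**Figure D3:**
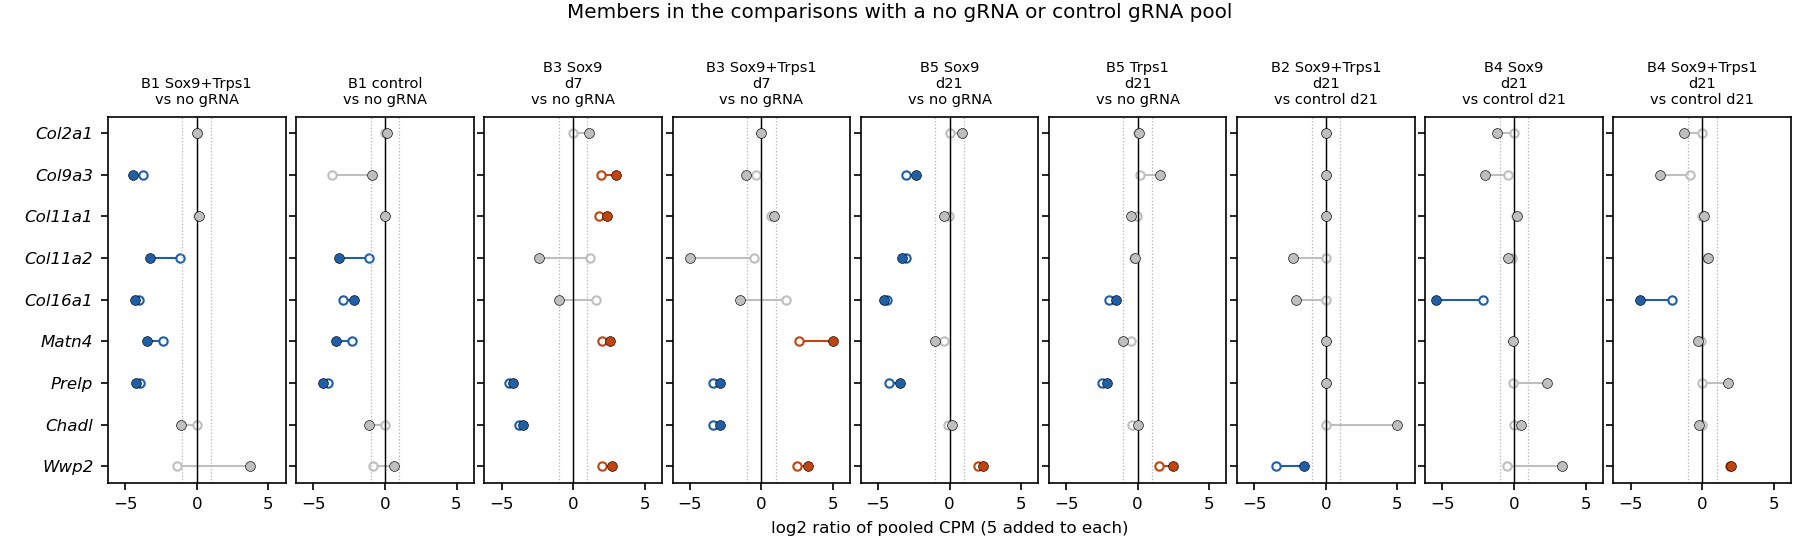
Log2 ratios of pooled CPM + 5 for each member in 9 comparisons with a no gRNA or control gRNA pool, with filled points for all cells and open points without each pool's highest cell. Red marks a member called higher, blue one called lower and grey one not called. Col16a1 is blue in both comparisons with control gRNA of batch 4, and Prelp in all 6 comparisons with a no gRNA pool. In the pair of batch 3, 1 no gRNA cell that the open points keep holds most of the reference reads of Prelp. With cells of most reads left out, the dual gRNA call ends and the Sox9 gRNA call stays.

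In batch 1 Prelp, Col16a1, Col11a2 and Matn4 were low in control gRNA cells, which carry no gRNA against Sox9. Prelp was read in 1 of 10 control gRNA cells, with 1 read, at 0.0905 CPM pooled. In no gRNA cells it was read in 10 of 31, 6 of them with 10 or more reads, at 95.4 CPM pooled. Col16a1 stood at 17.4 CPM in 3 of 10 control gRNA cells and 94.1 CPM in 13 of 31 no gRNA cells. Col11a2 stood at 0.181 CPM in the control gRNA pool and at 43.6 CPM without gRNA, and Matn4 at 0.452 and 52.2 CPM. Without its highest cells the no gRNA pool stood at 6.07 CPM for Col11a2 and 20.2 CPM for Matn4. Col9a3, not called, stood at 54.2 CPM in 1 of 10 control gRNA cells and at 105 CPM in 7 of 31 without gRNA. Prelp, Col16a1, Col11a2 and Matn4, 4 of 7 members, were called lower, with log2 ratios of -4.30, -2.15, -3.23 and -3.39. Without the highest cells those ratios were -3.98, -2.95, -1.15 and -2.31. Of all genes 17.8% were called lower, and the all-gene median was 0.26. No member was called higher, against 17.6% of genes. Microglial markers stood at 7548 CPM in control gRNA and 253 CPM in no gRNA cells, as they did between gRNA and no gRNA cells of batch 5, and their part was not tested.

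The 4 dual gRNA cells of batch 1 held no read of Col9a3, Col11a2, Col16a1 or Col2a1, where 3 counts would be 0.551 CPM, 1 read of Matn4 and 2 of Prelp. Against the no gRNA cells, which the control comparison also uses, 5 of 7 members were called lower, but so were 38.7% of all genes, and the all-gene median was -1.51. No member was called higher, against 5.85% of genes. Against control gRNA cells Col16a1 was called lower (log2 ratio -2.16, and 30.9% of genes, with a median of -1.65) and none higher (4.58% of genes). Wwp2 stood at 327 CPM in dual gRNA cells, 99.8% of it in 1 cell of 4, and at 0.773 CPM without it.

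Batch 2 separates the days under one control gRNA. At day 21 the control gRNA cells held no read of Col9a3 and at day 7 it stood at 164 CPM in 5 of 8 cells, from 0.382 to 806 CPM. Prelp stood at 0.0670 CPM at day 21 and 43.6 CPM at day 7, with reads in 1 of 7 and 4 of 8 cells, and Col16a1 at 16.1 and 81.9 CPM, in 1 and 2 cells. These 3 of 6 members were called lower at day 21 (log2 ratios -5.08, -3.26 and -2.04), against 21.9% of all genes and a median of -0.42. Wwp2 was higher at day 21, at 94.2 CPM in 2 cells and 11.2 CPM in 4 cells of day 7 (log2 ratio 2.61, and 9.29% of genes). Dual gRNA cells of day 21 held no read of 7 members, with a limit of 0.145 CPM, and 1 cell each held all reads of Chadl (156 CPM pooled) and Wwp2 (29.2 CPM). Against control gRNA cells of day 21 Wwp2 was called lower (log2 ratio -1.54, and 14.5% of genes, with a median of -0.37) and none higher (11.8% of genes).

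In batch 3 the reference pool was small and shallow, and its comparisons read differently. Against no gRNA cells, Sox9 gRNA cells were called higher in 4 of 9 members, where 48.2% of all genes were and the all-gene median was 1.43, so that count is at the background. The lower calls were Prelp, at 2.00 CPM in 2 of 21 Sox9 gRNA cells and 123 CPM in 2 of 6 no gRNA cells (log2 ratio -4.20), and Chadl, at 1.13 CPM and 64.9 CPM (-3.51), against 3.22% of all genes. A single no gRNA cell carries both, with 389 of 406 Prelp reads and 207 of 214 Chadl reads, and it was kept in the pool because a cell of 19048 reads was higher by CPM. Without the cell of most reads the no gRNA pool stood at 8.30 CPM for Prelp and 3.42 CPM for Chadl, and with such cells left out on both sides Chadl was no longer called (log2 ratio -0.73) while that of Prelp was -1.23, still called. Without series 7S, the Sox9 gRNA cells of series 7S2 left 3 calls in place of 6, and the ratio of Col9a3 turned to -1.06.

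Dual gRNA cells of batch 3 were lower in the same 2 members, Prelp at 12.4 CPM (log2 ratio -2.88) and Chadl at 4.63 CPM (-2.86), where 5.29% of all genes were called lower. They share the no gRNA cells with that comparison, and so the single cell: without the cells of most reads on both sides neither gene was called (log2 ratios -0.19 and -0.35), and 12.4 CPM of Prelp in dual gRNA cells stands above the 8.30 CPM left in the no gRNA pool. Matn4 and Wwp2 were called higher (log2 ratios 4.98 and 3.26), with 39% of genes higher and a median of 1.38. Between dual gRNA and Sox9 gRNA cells, Col9a3 (0 against 77.3 CPM), Col11a2 (3.79 against 48.3 CPM) and Col11a1 (5.005 against 21.8 CPM) were called lower, and Prelp (12.4 against 2.00 CPM) higher, where 19.1% of genes were lower and 8.24% higher. With series 7ST2 of the dual gRNA cells alone the ratio of Prelp turned to -0.48, and with 7S2 of the Sox9 gRNA cells alone that of Col11a2 turned to 0.81. Matn4 reached its highest pool of the series here, 152 CPM in 3 of 14 dual gRNA cells, 84.3% of it in 1 cell.

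Prelp was called lower in all 6 comparisons with a no gRNA pool, of batches 1, 3 and 5, which use 3 such pools between them and include control gRNA cells. In the pair of batch 3, the 1 no gRNA cell named above holds most of the reference reads. With cells of most reads left out the dual gRNA call ends, while the Sox9 gRNA call stays, at a log2 ratio of -1.23. Prelp was not called in the 3 comparisons with control gRNA cells that were both of day 21, in batches 2 and 4. A lower call was not possible there, because the control gRNA pools stood at 0.0670 and 2.09 CPM, under the 5 CPM added to each. Across batches the set of Prelp, Col16a1, Col11a2 and Col9a3 at 10 or more reads can be followed by label. In batch 5 it was found in 2 of 21 Sox9 gRNA, 13 of 30 Trps1 gRNA and 16 of 22 no gRNA cells. In batch 4 it was found in 4 of 16 Sox9 gRNA, 4 of 13 dual gRNA, 4 of 14 Trps1 gRNA and 7 of 15 control gRNA cells. In batch 3 it was found in 6 of 21 Sox9 gRNA, 4 of 14 dual gRNA and 4 of 6 no gRNA cells. Batch 2 gave 0 of 8 dual gRNA cells, 2 of 7 control gRNA cells of day 21 and 6 of 8 of day 7, and batch 1 gave 0 of 4 dual gRNA, 3 of 10 control gRNA and 14 of 31 no gRNA cells. None of the 12 in-slice controls held it.

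Other genes of the cartilage programme gave few calls. Of 22 genes of the aggrecan and matrilin network only 3 reached 5 CPM in Sox9 gRNA or no gRNA cells of batch 5, and 2 were lower: Hapln1, a link protein of aggrecan (17.4 against 56.3 CPM), and Scrg1, a small secreted protein of cartilage and brain (12.995 against 55.0 CPM). Of all genes 13.3% were called lower there. Both Hapln1 and Scrg1 were also lower in Sox9 gRNA than in Trps1 gRNA cells, where Hapln1 stood at 46.7 CPM and Scrg1 at 35.7 CPM. In that comparison 18.4% of all genes were called lower. The 6 other cartilage collagens gave no call in any of the 15 comparisons, but a gene under 5 CPM in both pools cannot be called. Of 20 collagen folding and crosslinking genes 17 reached 5 CPM, and 2 were higher and 3 lower in Sox9 gRNA than in no gRNA cells, near the 13.8% and 13.3% of all genes. Among them P4hb, a subunit of the proline hydroxylase that stabilises collagen, stood at 354 CPM in the Sox9 gRNA pool, against 147 CPM without gRNA, and P4ha2, another subunit, at 0.0585 and 27.6 CPM.

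Of 9 genes in the list of Sox factors and partners, 2 were lower in Sox9 gRNA than in no gRNA cells of batch 5, Trps1 (39.7 against 96.5 CPM) and Sox10 (1.70 against 16.2 CPM), and none was higher, among 8 at 5 CPM or more (13.3% of all genes were lower). In batch 4 the list gave 2 higher and no lower calls in Sox9 gRNA against control gRNA cells, Trps1 (41.4 against 3.35 CPM) and Sox6 (25.3 against 1.15 CPM), among 7 at 5 CPM or more (8.02% of all genes were higher). Sox5, which acts beside Sox9 in cartilage, stood at 110 CPM in 19 of 30 Trps1 gRNA cells and 38.3 CPM in 7 of 22 no gRNA cells of batch 5, and was called higher. Of 12 basement membrane and other collagens, 4 were higher in Trps1 gRNA than in no gRNA cells of that batch, with Col6a1 at 132 against 0.895 CPM in 3 cells and 1 cell, and none lower. That is 4 of 6 at 5 CPM or more, beside 19.2% of all genes called higher.

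In batch 4 the type I collagen genes, 2 of the fibroblast markers named above, made up most of the 270 CPM of that marker sum in Sox9 gRNA cells. Col1a1 stood at 177 CPM in Sox9 gRNA and 2.144 CPM in control gRNA cells, and Col1a2 at 70.3 and 1.48 CPM. Each had reads in 10 of 16 and 3 of 15 cells. Of 12 genes of chondroitin sulfate synthesis and growth plate signals, 3 were higher in the same comparison and none lower, among 7 at 5 CPM or more, beside 8.02% of all genes higher and 21.3% lower. Fgfr3, a receptor that restrains growth plate cartilage, stood at 385 CPM in Sox9 gRNA, 34.3 CPM in dual gRNA and 100.2 CPM in control gRNA cells, and was called lower in dual gRNA cells. Papss2, which makes the sulfate donor, stood at 81.6 CPM in Sox9 gRNA and 19.7 CPM in control gRNA cells, with reads in 2 and 5 cells.

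Members were found together in some cells. Of 14 cells with 10 or more reads of Matn4, 10 (71.4%) also held Col16a1 at that level, against 12.8% of cells without Matn4, and 7 (50%) held Col9a3, against 10.6%. Col16a1 was also found in 13 of 31 Col9a3 cells (41.9%, against 12.4% of other cells) and in 9 of 22 Chadl cells (40.9%, against 13.8%). Wwp2 cells held Col16a1 at the background rate, 8 of 48 (16.7%, against 16.1%). Cells of a batch share preparation and depth. Cells with a member also had more genes with a read than other cells of their pools, with medians of 5888.5 against 4253 for Matn4, 5631 against 4185 for Col16a1, 4630 against 4225 for Col9a3, 5706 against 3944 for Wwp2 and 7069 against 4000 for Chadl.

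The cells that held each member were compared by markers with the other cells of the same pools. Cells with Matn4 had a median of 325 CPM summed over the 8 markers of oligodendrocyte progenitors (14 cells), against 1.85 CPM in 164 others, and Col11a1 cells had 552 CPM (8 cells), against 6.82 CPM. Col11a1 cells also had 4813 CPM of microglial markers, against 316 CPM. Astrocyte markers stood at 4748 against 10044 CPM for Matn4 cells and at 3173 against 7907 CPM for Col11a1 cells. In Col9a3 cells the progenitor sum was 40.4 CPM, against 1.08 CPM. Prelp cells had 13132 CPM of astrocyte markers (34 cells), against 6633 CPM in 177 others, and 179 CPM of microglial markers, against 1705 CPM. Wwp2 cells had 6880 CPM of microglial markers (48 cells), against 929 CPM in 186 others.

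Those medians mix pools, so they were also taken within pools that had at least 4 cells with the member and 4 without. No pool had that many for Matn4. Prelp cells of the batch 5 no gRNA pool had 13491 CPM of astrocyte markers (10 cells), against 9676 CPM in the 12 others, and in the batch 1 no gRNA pool 16829 CPM (6 cells), against 9280 CPM. Microglial markers of Prelp cells stood at 134 CPM, against 55.4 CPM, in batch 5 and at 2.21 CPM, against 2.67 CPM, in batch 1, so the lower sum across pools was not seen within the batch 5 pool. Col16a1 cells had 17071 CPM of astrocyte markers (8 cells), against 8037 CPM, in that batch 1 pool, 14330 against 10530 CPM in batch 5 no gRNA and 4040 against 3021 CPM in batch 4 control gRNA, but 3805 against 12136 CPM in batch 3 Sox9 gRNA. The progenitor sum of Col9a3 cells was higher in batch 5, at 222 against 11.3 CPM in no gRNA and 38.8 against 1.17 CPM in Trps1 gRNA. It was 1.88 against 1.94 CPM in batch 1 no gRNA, and lower in control gRNA of day 7 of batch 2, at 2.03 against 16.01 CPM. Col11a1 cells of batch 3 Sox9 gRNA (4 cells) had 552 CPM of progenitor markers, against 0.692 CPM, and 8099 CPM of microglial markers, against 1699 CPM. Their astrocyte markers stood at 13986 CPM, against 7963 CPM, so the lower sum across pools was not seen there. Wwp2 cells had more microglial markers than the others within Sox9 gRNA of batch 5 (7054 against 3838 CPM) and of batch 3 (8099 against 1699 CPM), within Trps1 gRNA of batch 4 (3340 against 1838 CPM), and in control gRNA of day 7 of batch 2 (1579 against 1328 CPM). In Trps1 gRNA of batch 5 the order turned, at 1655 against 2005 CPM.

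**Figure D4:**
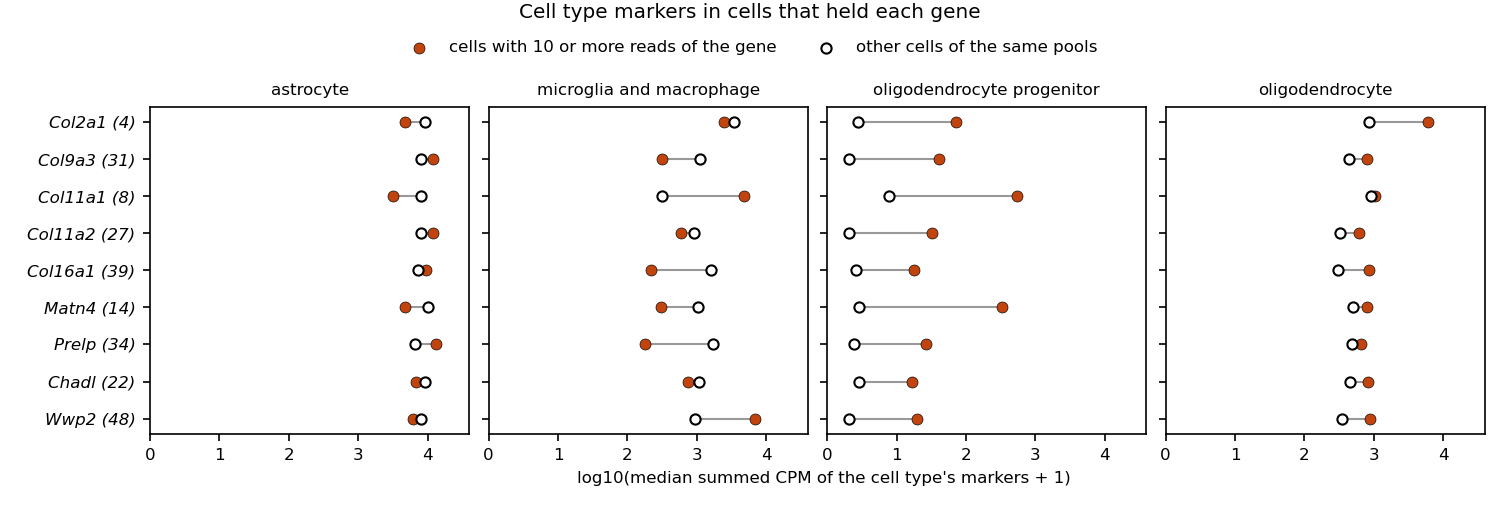
Median summed CPM (log10 of CPM + 1) of astrocyte, microglial, oligodendrocyte progenitor and oligodendrocyte markers in cells with 10 or more reads of each member and in the other cells of the same pools. Matn4 and Col11a1 cells stand out by progenitor markers (325 and 552 CPM), and Wwp2 and Col11a1 cells by microglial markers (6880 and 4813 CPM). These medians mix pools.

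Likeness of pattern was ranked for the 6 members read in 40% or more of the cells of some pool, by Pearson r of log2(CPM + 5) over the 16 astrocyte pools after each batch's mean was taken off. It is a description over pools that share batches and depth. Col16a1 was most like Wwtr1 (r = 0.892), Ganab (0.886) and Adamts1 (0.871), and Prelp most like Inf2 (0.875), Rtn2 (0.850) and Lars2 (0.841). Col9a3 was most like Top3b (0.938), Cers4 (0.918) and Btbd2 (0.896), Chadl like Aldh2 (0.879), Fam124a (0.871) and Chst1 (0.867), and Wwp2 like Crbn (0.890), Rfc2 (0.867) and Spcs2 (0.863). Col11a1, which enters through 2 of the 4 dual gRNA cells of batch 1, was most like Gm28439 (0.885), Edc3 (0.854) and Gm13340 (0.837). Only genes that reached 5 CPM in at least as many pools as not were ranked. Col2a1, Col11a1, Col11a2, Matn4 and Chadl fell short of that and could not appear. Of Col9a3, Col16a1, Prelp and Wwp2, none was among the 3 genes most like another member.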

How the data were processed

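The authors deposited 1 table of raw read counts for each batch, with genes by cells. The submitters' processing notes list RSEM 1.3.0, STAR 2.6.0a and the builds mm10 and GRCm38 without saying what each was used for. Of 289 labelled samples, 254 had a column (242 astrocyte libraries and 12 in-slice controls) and 35 of batch 4 were not analysed here. Entries that name no gene held 75.6% of counts in batch 1, 22.3% in batch 2 and at most 0.379% elsewhere, and were kept out of totals. The count per astrocyte ran from 15959 to 4656612, and precision of CPM follows from these totals through exact Poisson intervals at 95%. For cell shares it follows from the number of cells, through Clopper-Pearson intervals at 95%.

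No animal is named, so each gRNA label, day and batch was 1 pool and no test was run. Counts were summed per pool, turned into CPM and compared within a batch. A call needed a log2 ratio of CPM + 5 of at least 1 in size with and without each pool's highest cell; the background is the share of genes at 5 CPM or more so called. The script was tested on simulated data. Names and exon lengths came from the GENCODE annotation supplied (GRCm38), promoters from RefSeq, of which 7 of 9 members were matched. The text names all members, up to 4 called genes of each list per comparison by the ratio left without the highest cells, and 3 genes of like pattern per member. Members and lists were chosen with earlier results of these data known. Python 3.11.15, numpy 2.4.6, pandas 2.3.3, scipy 1.17.1, matplotlib 3.10.9 and, for TMM factors, R 4.3.3 with edgeR 4.0.16 were used. Alternatives were the scaling, the added CPM, the CPM minimum, calls on all cells alone, equal weight of cells, single title series, the cell of most reads left out of the call, and the joined libraries kept apart.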

Additional observations from a re-analysis of the deposited data

Results flagged for a closer look

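In pools of 4 to 10 libraries, 22 combinations of pool and member were examined, and in 17 the highest library lay far from the rest by Dixon's 95% criterion. Its usual rate of about 1 in 20 groups does not apply here, because most libraries of these pools stood at 0 for the gene in question. Where a single library of a pool had reads, the criterion was met whatever its value, so the 17 flags do not count unusual libraries.

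Wwp2 gave 6 of them. Its highest library stood at 1138 CPM in dual gRNA and 237 CPM in control gRNA cells of batch 1, and at 178 CPM in dual gRNA cells of day 21 and 49.7 CPM in control gRNA cells of day 7 of batch 2. In the in-slice controls it reached 26.1 CPM in batch 3 and 527 CPM in batch 5.

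In batch 2, 1 dual gRNA cell of day 21 held Chadl at 692 CPM. Single control gRNA cells held Col11a2 at 130 CPM and Col16a1 at 96.0 CPM at day 21, and Col11a2 at 62.4 CPM, Matn4 at 820 CPM and Prelp at 305 CPM at day 7. A control gRNA cell of batch 1 held Col9a3 at 391 CPM.

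In the 6 no gRNA cells of batch 3 the highest cell stood at 892 CPM for Prelp (17 reads, in a cell of 19048), 573 CPM for Col11a2, 247 CPM for Col16a1 and 37.0 CPM for Col9a3. These are the cells against which Sox9 gRNA and dual gRNA cells of that batch were set.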

How the results depend on the processing

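Counts of members called between Sox9 gRNA and no gRNA cells of batch 5 stayed within 1.5 times of 5 under each alternative run. In the other comparisons the counts below moved. Without asking for the ratio that leaves out the highest cells, they were 3 in place of 1 (batch 1, dual against control gRNA), 4 in place of 1 (batch 2, dual against control gRNA), 7 in place of 4 (batch 3, dual against no gRNA) and, in batch 4, 5 in place of 1 (Sox9 against control gRNA), 5 in place of 2 (dual against control gRNA), 2 in place of 0 (Sox9 against dual gRNA) and 7 in place of 3 (Trps1 against control gRNA). For Trps1 against no gRNA cells of batch 5 it was 5 in place of 3. The construction of the call shows the cause, single high cells. With 1 CPM added, the counts were 7 (batch 3, dual against no gRNA), 2 (batch 4, Sox9 against dual gRNA) and 5 (batch 4, Trps1 against control gRNA). A minimum of 20 CPM left 0 of 1 for dual against control gRNA cells of batch 1, TMM scaling left 2 of 4 for dual against Sox9 gRNA cells of batch 3, and equal weight of cells left 1 of 2 for dual against control gRNA cells of batch 4.

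With 1 title series alone, 3 of 6 calls were left for Sox9 gRNA against no gRNA cells of batch 3 (7S2), 1 arose between Sox9 and dual gRNA cells of batch 4 (21S), 1 of 3 was left for Trps1 gRNA against no gRNA cells of batch 5 (21T), and Sox9 against Trps1 gRNA cells had 2 in place of 4 (21T, and again 21T3). The ratios that changed sign were, in batch 3, Col9a3 at -1.06 for Sox9 gRNA against no gRNA (7S2), and Prelp at -0.48 (7ST2) and Col11a2 at 0.81 (7S2) for dual against Sox9 gRNA. In batch 5 they were Wwp2 at -0.88 for Trps1 gRNA against no gRNA (21T3), and Prelp at 1.37 (21T), Col9a3 at 1.15 and Col16a1 at 0.017 (21T3) for Sox9 against Trps1 gRNA. Their cause was not tested. Leaving out each of the 4 dual gRNA cells of batch 1 kept the counts at 1 to 1 against control gRNA and 5 to 5 against no gRNA cells. Keeping the near-identical libraries apart, chosen after seeing the data, moved no count. Leaving out the cell of most reads in place of the highest CPM, also chosen after seeing the data, left 2 of 4 for dual against no gRNA cells of batch 3 and moved no other count beyond 1.5 times. Series 7T2 alone was not run (1 cell). No paired analysis was possible because replicate numbers only name cells and no comparison rests on a test.

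Depth limits the low values: a member with no read in a pool is bounded only by 3 counts, and 50% of low-read cells of batch 4 shared an index with the highest cell.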
